A study of Mus musculus with 16 samples.

Results

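The TREM receptors, the DAP12 and DAP10 adaptors that carry their signals and the SYK kinase behind DAP12 were followed across injury and Trem2 genotype in the mouse knee joint. The group was set by name: Trem2, Trem1, Trem3, Treml2 and Treml4 (receptors), Tyrobp (which encodes DAP12), Hcst (DAP10) and Syk, 8 of the 13733 genes listed. The rule itself uses no measured value, and all 8 passed the filter on low values, which kept 13173 genes. Bulk RNA-seq was made from knee joint cells of C57BL/6 wildtype (WT) mice and Trem2 knockout (Trem2-/-) mice, either uninjured (D0) or 7 days after anterior cruciate ligament rupture by a single tibial compressive overload (D7). Each combination of genotype and time held 4 libraries, 16 in all. Per the treatment notes, injury was given at 10 weeks of age, whereas the sample labels give 16 weeks for every library. The labels do not say that each library is a separate animal, so the p-values measure the spread between libraries, part of which may be technical. The Trem2-/- mice are a constitutive knockout bought as a line (C57BL/6J-Trem2em2Adiuj/J per the study's methods), so every cell type lacked the normal gene, and the part of the gene that is altered was not looked up here. The preparation notes attached to the samples name another mouse model, so how the cells were released is uncertain, and whether immune cells were enriched before RNA extraction is not stated for these libraries.

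TREM receptors are single-span surface proteins of the immunoglobulin superfamily. TREM1, TREM2 and TREM3 have short tails and depend on DAP12, a small dimeric adaptor whose intracellular ITAM is phosphorylated by SRC-family kinases and then binds SYK, which passes the signal on through phospholipase C gamma and PI3 kinase. TREM2 is a lipid and lipoprotein receptor of tissue macrophages, microglia and osteoclast precursors, and TREM1 is an amplifier of inflammatory responses on neutrophils and monocytes. DAP10 has no ITAM and recruits PI3 kinase instead.

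In the mouse genome (GRCm38, GENCODE M21 annotation) the receptors lie side by side on the plus strand of chromosome 17, within 134409 bases from the start of Trem1 to the end of Treml1. Trem1 (ENSMUSG00000042265) occupies chr17:48232768-48246924 and Trem3 (ENSMUSG00000041754) chr17:48247777-48258841. Treml4 (ENSMUSG00000051682) follows at chr17:48264295-48275360 and Treml2 (ENSMUSG00000071068) at chr17:48299498-48312533. Trem2 (ENSMUSG00000023992) is at chr17:48346401-48354147. The adaptors form another neighbouring pair: Tyrobp (ENSMUSG00000030579) at chr7:30413760-30417585 on the plus strand and Hcst (ENSMUSG00000064109) at chr7:30417712-30419854 on the minus strand, with their 3′ ends facing each other 126 bases apart. Syk (ENSMUSG00000021457) is at chr13:52583173-52648792 on the plus strand. No exon of the 8 genes overlapped an exon of another gene, and none of the 8 shared a 75-base stretch of transcript with another gene, so their reads can be counted apart from those of their relatives.

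The windows of 250 bases before the RefSeq starts (GRCm38.p6) are shown for Trem2, whose level moved apart from the rest, and for Trem1, Treml4 and Hcst, which moved with one another. RefSeq windows were matched for 5 of the 8 genes, with 2 windows for Syk, and not for Tyrobp, Trem3 or Treml2. Capitals mark AGGAAG, the purine-rich core that the myeloid factor PU.1 is known to bind, or its reverse complement CTTCCT. The windows are written 5′ to 3′ on the strand of each gene.
Trem2, chr17:48346151-48346400, plus strand: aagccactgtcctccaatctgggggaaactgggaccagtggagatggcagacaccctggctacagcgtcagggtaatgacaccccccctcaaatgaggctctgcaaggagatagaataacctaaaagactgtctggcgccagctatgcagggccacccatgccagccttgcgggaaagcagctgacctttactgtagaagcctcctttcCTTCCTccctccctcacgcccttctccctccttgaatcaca
Trem1, chr17:48232489-48232738, plus strand: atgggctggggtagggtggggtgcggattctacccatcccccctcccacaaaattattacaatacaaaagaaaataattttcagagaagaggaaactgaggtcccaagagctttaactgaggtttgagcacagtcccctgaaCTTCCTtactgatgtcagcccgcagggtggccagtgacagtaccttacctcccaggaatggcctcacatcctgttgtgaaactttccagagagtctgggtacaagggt
Treml4, chr17:48264045-48264294, plus strand: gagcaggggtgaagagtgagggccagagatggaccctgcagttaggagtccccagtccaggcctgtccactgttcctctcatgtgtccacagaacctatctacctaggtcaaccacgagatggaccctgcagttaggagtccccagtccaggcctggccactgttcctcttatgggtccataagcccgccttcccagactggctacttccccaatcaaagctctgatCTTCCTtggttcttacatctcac
Hcst, chr7:30419855-30420104, minus strand: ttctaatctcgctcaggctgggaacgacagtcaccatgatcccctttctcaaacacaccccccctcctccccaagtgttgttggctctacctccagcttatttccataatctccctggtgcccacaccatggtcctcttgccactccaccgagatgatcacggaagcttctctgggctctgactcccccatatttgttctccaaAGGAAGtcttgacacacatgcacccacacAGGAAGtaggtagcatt
Trem2, Trem1 and Treml4 each held the motif once, on the strand opposite the gene, with the first base 41, 108 and 23 bases before the start. Hcst held it at 2 places on its own strand, 46 and 17 bases before the start, and neither Syk window held it. Of 32851 RefSeq windows of this length, 29.48% held AGGAAG on either strand and 6.246% held it 2 or more times. The letters TTNNGNAA, a C/EBP-like sequence searched on both strands, were found in the windows of Hcst, Trem1 and Treml4 and in 1 of the Syk windows, but not in that of Trem2, against 36.85% of all windows. These matches describe the letters only.

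The libraries held 11567073 to 32867818 reads on the listed genes, recovered from the deposited CPM (read counts scaled to library size), and 1 library each of WT D7 (replicate 3) and Trem2-/- D7 (replicate 1) exceeded 1.5 times the median depth. Macrophage, neutrophil, pan-leukocyte and fibroblast markers were present in every group, and none of the listed markers was at 0 in all libraries of a group. The summed fibroblast markers (5 of 5 listed) stood at 4562 to 36469 CPM at WT D0 and 53722 to 90603 CPM at WT D7, and at 4286 to 8199 CPM and 64000 to 101052 CPM at the same times in Trem2-/- mice, so the libraries held stromal as well as immune RNA. In such bulk samples, fewer cells of a type and less RNA per cell cannot be told apart. A gene was called when the unadjusted p of limma was below 0.05 and the difference above 0.32 on the log2 scale, and fold changes are differences in log2(CPM + 1), which understate the change of low genes.

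Trem2 itself checked the genotype. In WT mice it stood at 2.51, 4.88, 5.26 and 5.61 CPM at D0 and at 15.1, 22.5, 18.9 and 10.7 CPM at D7. In Trem2-/- mice it stood at 1.88, 0.948, 2.68 and 1.70 CPM at D0 and at 4.13, 4.69, 3.42 and 4.84 CPM at D7. Trem2 reads were thus lower but not absent in the knockout, with at least 15 reads in each library, and the D7 knockout libraries lay in the range of uninjured WT. The mean of the Trem2-/- group was 25.4% of the WT mean at D7 and 39.5% at D0. At D7 all 4 Trem2-/- libraries were below all 4 WT libraries, with a log2 fold change of -1.72 (SE 0.25, adjusted p = 0.0503 by limma with Benjamini-Hochberg adjustment). At D0 the groups met at a single pair of libraries, 2.68 CPM in Trem2-/- against 2.51 CPM in WT, and the log2 fold change was -0.98 (SE 0.25, adjusted p = 0.9996 by limma). A gene total does not tell which part of the transcript the remaining reads come from.

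**Figure D1:**
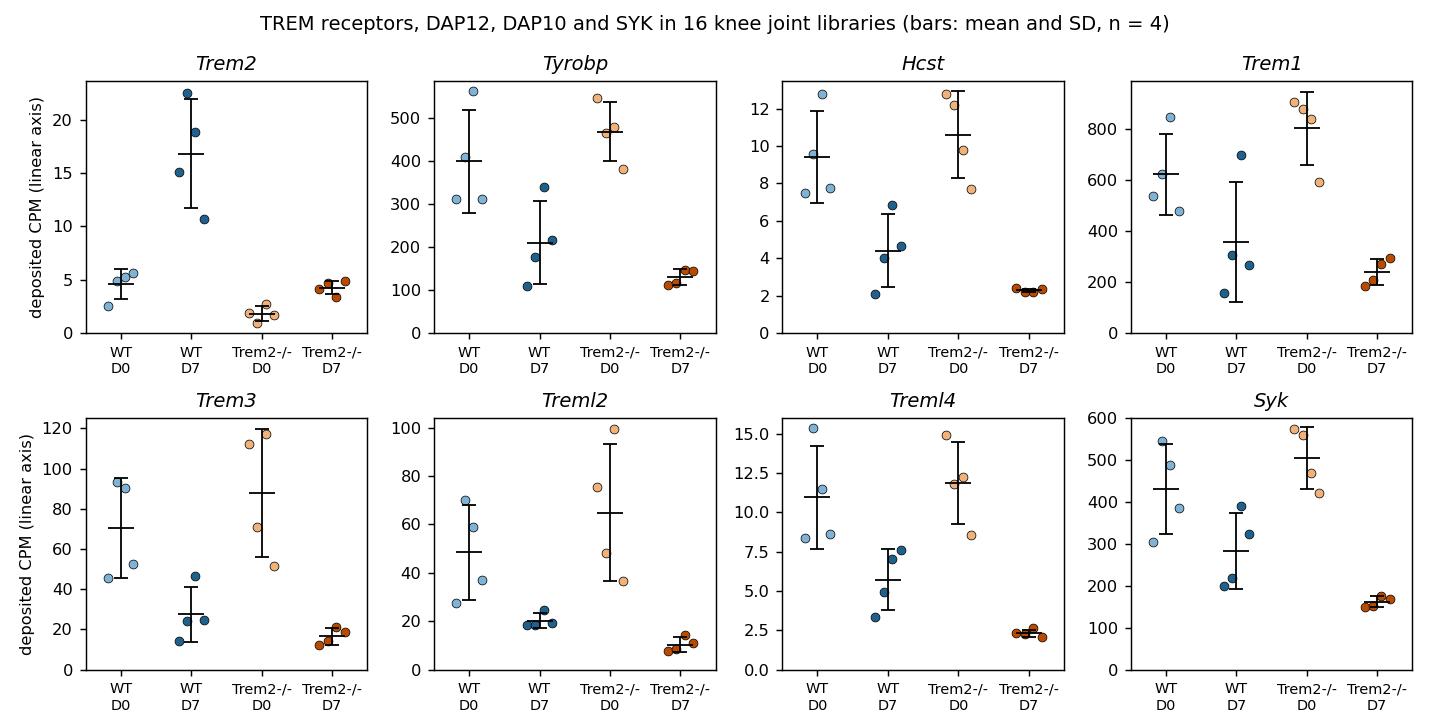
Deposited CPM on linear axes for each of the 8 genes in 16 libraries, with 1 point per library and bars for the mean and SD of the 4 libraries of each genotype and time. Trem2 is highest at WT D7 (10.7 to 22.5 CPM), whereas the other 7 genes have lower means at D7 than at D0 in both genotypes.

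Injury moved Trem2 and the other 7 genes in opposite directions. Trem2 rose in WT mice from 4.56 ± 1.40 CPM (SD, n = 4) at D0 to 16.8 ± 5.08 CPM (SD, n = 4) at D7, a ratio of means of 3.68. Its log2 fold change was 1.67 (SE 0.25, adjusted p = 0.000736 by limma), and the lowest injured library was above the highest uninjured one. The reads that remained in Trem2-/- mice rose too, from 1.80 ± 0.713 to 4.27 ± 0.644 CPM (SD, n = 4 each), with a log2 fold change of 0.94 (SE 0.25, adjusted p = 0.00504 by limma). The other 7 genes fell in both genotypes, each with an adjusted p below 0.05 by limma. In WT the count of the 8 with an adjusted p below 0.05 was 4 without WT D0 replicate 3 and 5 without WT D0 replicate 2. In WT mice 4933 of 13173 genes (37.4%) were called between D7 and D0, with 18.2% of all genes called lower and 19.3% called higher, and with 12.6% lower and 15.9% higher at an adjusted p below 0.05. In Trem2-/- mice 54.5% were called, 27.9% lower and 26.5% higher, and at an adjusted p below 0.05 the shares were 27.2% lower and 26% higher. Injured libraries were separate from uninjured ones for 9.34% of genes downward and 12.9% upward in WT, and for 26.3% and 26.1% in Trem2-/- mice. Of the 8 genes, 4 were separate in WT (Trem2 upward, Hcst, Treml2 and Treml4 downward) and 8 in Trem2-/- mice. Their median log2 fold change with injury came to -0.98 in wildtype and to -1.82 in knockout mice, where all genes together had -0.04 in both.

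Tyrobp, the adaptor of TREM1, TREM2 and TREM3, was the most abundant of the 8 per length. In WT mice it measured 313, 410, 564 and 311 CPM at D0 and 109, 178, 339 and 217 CPM at D7. Knockout values were 548, 466, 480 and 381 CPM at D0 and 113, 117, 146 and 145 CPM at D7. The WT groups overlapped through a single high injured library (replicate 3), and the Trem2-/- groups did not overlap. The log2 fold change with injury was -0.99 in WT (SE 0.27, adjusted p = 0.0155 by limma) and -1.84 in Trem2-/- mice (SE 0.27, adjusted p = 8.16e-05).

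Hcst, the gene next to Tyrobp, was lower in level but moved alike. Its WT values were 7.47, 9.56, 12.8 and 7.73 CPM at D0 and 2.09, 4.02, 6.83 and 4.63 CPM at D7. Its Trem2-/- values were 12.8, 12.2, 9.78 and 7.72 CPM at D0 and 2.39, 2.21, 2.18 and 2.34 CPM at D7. The injured and uninjured libraries were separate in both genotypes, and the 4 injured Trem2-/- libraries spanned only 2.18 to 2.39 CPM. The log2 fold change was -0.99 in WT (SE 0.24, adjusted p = 0.00825 by limma) and -1.80 in Trem2-/- mice (SE 0.24, adjusted p = 3.92e-05).

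Trem1 was the most abundant receptor. It stood at 538, 621, 844 and 479 CPM in WT D0 and at 157, 306, 697 and 268 CPM in WT D7. The Trem2-/- libraries stood at 902, 878, 836 and 592 CPM at D0 and at 182, 209, 271 and 294 CPM at D7. WT D7 replicate 3, at 697 CPM, was the highest of the injured WT libraries and lay within the uninjured range, while the Trem2-/- groups were separate. Trem1 fell by 0.97 on the log2 scale in WT (SE 0.33, adjusted p = 0.0409 by limma) and by 1.75 in Trem2-/- mice (SE 0.33, adjusted p = 0.000555).

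Trem3, the neighbour of Trem1 and a DAP12-coupled receptor known in mice, followed the same order. Its WT values were 45.6, 93.5, 90.2 and 52.6 CPM at D0 and 14.1, 24.2, 46.7 and 24.9 CPM at D7. Its Trem2-/- values were 112, 70.8, 117 and 51.4 CPM at D0 and 12.3, 14.2, 21.3 and 18.8 CPM at D7. Again only replicate 3 of WT D7 reached the uninjured WT range. The fall with injury was -1.38 in WT (SE 0.34, adjusted p = 0.00997 by limma) and -2.29 in Trem2-/- mice (SE 0.34, adjusted p = 9.02e-05) on the log2 scale.

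Treml2 and Treml4, the TREM-like receptors of the cluster, were separate between D0 and D7 in both genotypes. Treml2 measured 27.5, 70.3, 59.1 and 37.2 CPM at WT D0 and 18.4, 18.4, 24.7 and 19.4 CPM at WT D7. It measured 75.3, 48.1, 99.5 and 36.7 CPM at Trem2-/- D0 and 7.69, 8.41, 14.5 and 10.8 CPM at Trem2-/- D7. Every injured library was below every uninjured one of its genotype, and the log2 fold change of -2.47 in Trem2-/- mice (SE 0.31, adjusted p = 3.03e-05 by limma) was the largest of the 8, against -1.14 in WT (SE 0.31, adjusted p = 0.0150). Treml4 measured 8.37, 15.3, 11.5 and 8.61 CPM at WT D0 and 3.34, 4.93, 7.03 and 7.60 CPM at WT D7. In the knockout Treml4 measured 14.9, 11.8, 12.2 and 8.57 CPM at D0 and 2.32, 2.27, 2.63 and 2.09 CPM at D7. Treml4 fell by 0.84 on the log2 scale in WT (SE 0.23, adjusted p = 0.0140 by limma) and by 1.93 in Trem2-/- mice (SE 0.23, adjusted p = 2.14e-05).

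Syk, the kinase that binds the phosphorylated DAP12 ITAM, showed the smallest fall of the 7 in WT mice. It stood at 303, 545, 487 and 386 CPM at WT D0 and at 200, 218, 390 and 323 CPM at WT D7. Its Trem2-/- libraries stood at 574, 559, 467 and 420 CPM at D0 and at 150, 153, 176 and 168 CPM at D7. The WT groups overlapped, and the Trem2-/- groups were far apart. The log2 fold change was -0.62 in WT (SE 0.21, adjusted p = 0.0388 by limma) and -1.63 in Trem2-/- mice (SE 0.21, adjusted p = 3.64e-05).

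Treml1, a cluster member best known from platelets and not counted among the 8, was near the detection limit, with 0 to 49 reads in WT libraries and 2 to 58 reads in Trem2-/- libraries. It was called lower at D7 in WT (log2 fold change -0.83, SE 0.35, adjusted p = 0.0845 by limma) and in no other comparison.

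**Figure D2:**
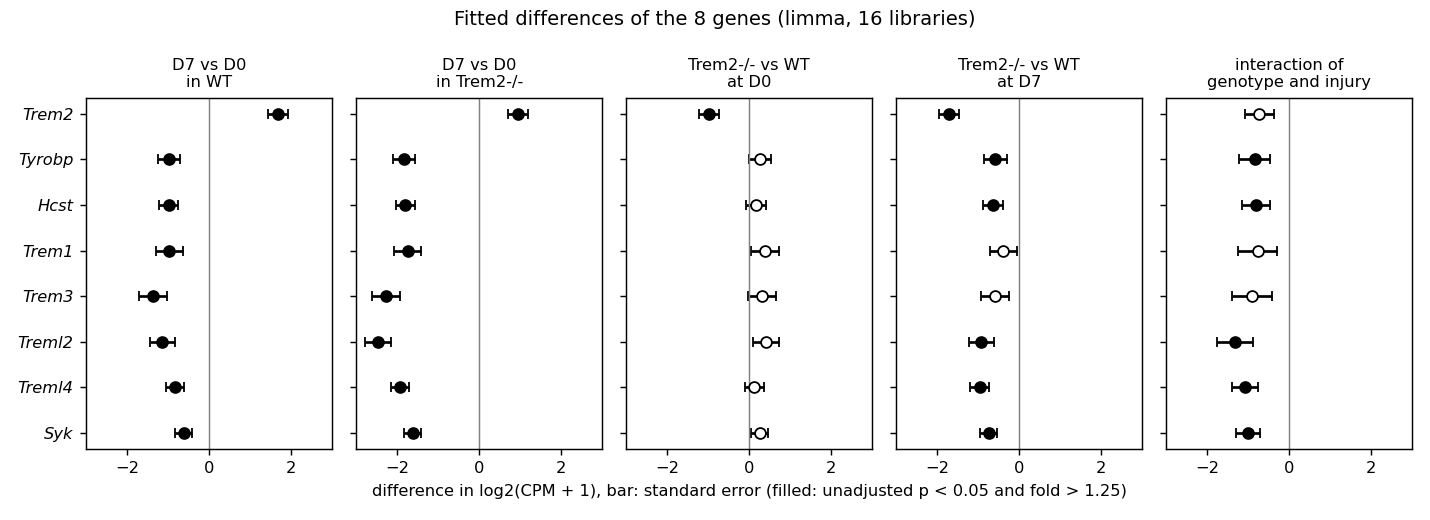
Fitted difference in log2(CPM + 1) for each of the 8 genes in 5 contrasts, with bars for the standard error and filled points for genes called at an unadjusted p below 0.05 and a difference above 0.32. Trem2 alone of the 8 is above 0 after injury in both genotypes, and all 8 are below 0 between the genotypes at D7.

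At D7 the knockout was below WT in the mean of all 8 genes, and 6 of the 8 were called lower, 1 of them Trem2, the gene knocked out. Over all genes 4.53% were called lower and 5.72% were called in either direction. None of the 8, and none of 13173 genes, had an adjusted p below 0.05 by limma, while 958 genes (7.27%) had an unadjusted p below 0.05. Beside Trem2, the called genes were Treml4 at -0.97 (SE 0.23), Treml2 at -0.93 (SE 0.31), Syk at -0.75 (SE 0.21), Hcst at -0.64 (SE 0.24) and Tyrobp at -0.58 (SE 0.27) on the log2 scale. Trem1 at -0.39 (SE 0.33) and Trem3 at -0.60 (SE 0.34) were not called. The median of the 8, with Trem2 included, was -0.70, against 0.01 over all genes. For Trem2, Treml2, Treml4 and Syk every Trem2-/- library was below every WT library (exact two-sided permutation p = 0.0286, the smallest that 4 against 4 allows), where 4.78% of all genes were separate in this direction. Tyrobp, Hcst, Trem1 and Trem3 overlapped between genotypes. WT replicate 1 lay inside the knockout range for Trem3 and below it for Tyrobp, Hcst and Trem1, and WT replicate 4 also lay inside it for Trem1.

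Replicate 3 of WT D7 decided part of this. Without it the log2 fold change of Trem1 was 0.0015 rather than below 0, that of Tyrobp was -0.32 (unadjusted p = 0.206) and that of Hcst -0.44 (unadjusted p = 0.0721), and 4 of the 8 were called. Without both deep libraries, 3 were called. The call of Tyrobp was close to its limit (unadjusted p = 0.0478) and was lost in 12 of 16 fits with a library left out and under median-of-ratios rescaling (unadjusted p = 0.0541).

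At D0 only Trem2, 1 of the 8, was called between the genotypes. The other 7 had higher means in Trem2-/- mice, by 0.12 to 0.40 on the log2 scale, and none of them was called, in a comparison with 2.15% of all genes called and 1.37% called lower. None of the 8 or of all 13173 genes had an adjusted p below 0.05 by limma there, with Trem2 alone of the 8 at an unadjusted p below 0.05. The 8 genes had a median difference of 0.26, against 0.00426 over all genes.

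The same D7 libraries enter the genotype and the injury comparisons, which are therefore not independent. The fall with injury was steeper in Trem2-/- than in WT mice for 5 genes by the interaction term of limma. These were Treml2 at -1.33 (SE 0.44, unadjusted p = 0.00837), Treml4 at -1.09 (SE 0.32, unadjusted p = 0.00368), Syk at -1.005 (SE 0.30, unadjusted p = 0.00415), Tyrobp at -0.85 (SE 0.38, unadjusted p = 0.0431) and Hcst at -0.81 (SE 0.34, unadjusted p = 0.0296), on the log2 scale. Trem2, Trem1 and Trem3 had interactions of -0.73, -0.77 and -0.91 that were not called. The background was 7.79% of genes called and 5.02% called lower, and none of the 8 had an adjusted p below 0.05 (0.579 to 0.679 by limma), with 5 at an unadjusted p below 0.05. The calls of Tyrobp and Hcst were lost in 9 and 6 of 16 fits with a library left out, and without both deep libraries their interactions were -0.51 and -0.62, with unadjusted p of 0.160 and 0.0840. The count was 3 of 8 when WT D0 replicate 1, WT D7 replicate 3 or Trem2-/- D0 replicate 1 was left out.

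Pan-leukocyte markers moved with these differences. The summed pan-leukocyte markers (6 of 6 listed: Ptprc, Coro1a, Laptm5, Cd53, Cd52, Rac2) ran from 2093 to 4293 CPM at WT D0, 1214 to 2556 CPM at WT D7, 2653 to 4602 CPM at Trem2-/- D0 and 902 to 1132 CPM at Trem2-/- D7. At D7 the knockout was thus below WT in this sum too, and 5 of the 6 markers were called lower there and lower in the interaction. Over all genes 4.53% were called lower at D7 and 5.02% in the interaction. None of the 6 had an adjusted p below 0.05 by limma in either. Neutrophil markers (5 of 5 listed) summed to 9507 to 20900 CPM at WT D0 and 2795 to 10053 CPM at WT D7, and to 9957 to 26082 CPM and 3040 to 4733 CPM at the same times in Trem2-/- mice. All 5 were called lower with injury in both genotypes (18.2% of all genes in WT and 27.9% in Trem2-/- mice). None of the 5 was called between genotypes at D7 or in the interaction, though all 5 differences were below 0 in each. The summed macrophage markers (8 of 8 listed) went the other way in WT mice, from 212 to 388 CPM at D0 to 529 to 740 CPM at D7. In Trem2-/- mice this sum was 293 to 331 CPM at D0 and 419 to 496 CPM at D7. With injury 7 of the 8 were called higher in WT (19.3% of all genes). In Trem2-/- mice 6 were called higher (26.5% of all genes) and Cd68 was called lower (27.9% of all genes). Marrow myeloid precursor markers (4 of 4 listed) summed to 591 to 2413 CPM at WT D0 and 225 to 530 CPM at WT D7, and to 844 to 3934 CPM and 252 to 346 CPM in Trem2-/- mice. All 4 were called lower with injury in both genotypes, where 18.2% of all genes were called lower in WT and 27.9% in Trem2-/- mice. The fibroblast sums given above were higher at D7 than at D0 with no overlap in either genotype, and 4 of the 5 markers were called higher in each. Over all genes 19.3% were called higher in WT and 26.5% in Trem2-/- mice. The part of the fibroblast and precursor markers in the fall of the 7 genes was not tested. Both leukocyte and macrophage sums at D7 were lower in the knockout with no overlap, where 4.78% of all genes were separate in this direction. Of the 8 macrophage markers, 3 (Adgre1, Cd68 and Csf1r) were called lower there (4.53% of all genes) and 5 were not called. None of the 8 had an adjusted p below 0.05 by limma, though all 8 differences were below 0.

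Set against these markers within each library, the members behaved differently from one another. Each value below is the log2(CPM + 1) of the gene less the mean log2(CPM + 1) of its comparator, tested by an exact two-sided permutation of 8 libraries with a smallest p of 0.0286, and 16 such tests were made without adjustment. Tyrobp relative to the pan-leukocyte markers was -0.23 ± 0.18 at WT D0, -0.26 ± 0.21 at WT D7, -0.23 ± 0.17 at Trem2-/- D0 and -0.15 ± 0.08 at Trem2-/- D7 (SD, n = 4 each). Its differences were 0.11 between genotypes at D7, -0.00043 at D0, -0.03 with injury in WT and 0.08 with injury in Trem2-/- mice, with exact permutation p of 0.371, 1, 0.857 and 0.371. Tyrobp thus fell by about as much as these markers, within group SDs of 0.08 to 0.21.

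Trem1 was set against neutrophil markers in the same way. It was -0.65 ± 0.29 at WT D0 and -0.24 ± 0.18 at WT D7 (SD, n = 4 each), a difference of 0.41 with no overlap (exact permutation p = 0.0286). In Trem2-/- mice the difference with injury was 0.43 (exact permutation p = 0.2), and between genotypes it was 0.07 at D7 (exact permutation p = 0.514) and 0.05 at D0 (exact permutation p = 0.8). The WT difference was lost as a call with a pseudocount of 5 (0.35, exact permutation p = 0.114) and in 5 of 8 tests with a single library left out, each of the 4 WT D7 libraries and WT D0 replicate 2 (0.30 to 0.45, exact permutation p = 0.0571 to 0.143). The spread at D0 in the knockout (SD 0.46) was larger than the difference there.

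Trem2 relative to the macrophage markers changed little with injury in WT mice, from -1.93 ± 0.26 to -1.97 ± 0.22 (SD, n = 4 each), a difference of -0.04 (exact permutation p = 0.743). The rise of Trem2 in WT was thus of about the size of the rise in these macrophage markers. Between genotypes at D7 the difference was -1.31, with WT at -1.97 ± 0.22 and Trem2-/- at -3.28 ± 0.07 and no overlap (exact permutation p = 0.0286). At D0 the difference was -0.90 with overlap (exact permutation p = 0.114), where replicate 3 of Trem2-/- D0, at -1.86, lay inside the WT range. In the knockout the difference with injury was -0.45 (exact permutation p = 0.314).

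The bulk RNA level of Trem2 relative to that of Tyrobp shifted, and whether it changed within any cell type was not tested. Trem2 relative to Tyrobp rose by 2.66 with injury in WT mice, from -6.17 ± 0.44 to -3.50 ± 0.76, and by 2.78 in Trem2-/- mice, from -7.41 ± 0.40 to -4.64 ± 0.30 (SD, n = 4 each, exact permutation p = 0.0286 for both). The knockout was lower than WT by 1.13 at D7 and by 1.246 at D0, each with no overlap (exact permutation p = 0.0286). With a pseudocount of 5 the D7 difference was -0.63 (exact permutation p = 0.229). The D7 call was lost as well when any 1 of the Trem2-/- D7 libraries was left out (-1.22 to -0.99, exact permutation p = 0.0857 to 0.114). The WT D7 libraries fell into 2 pairs, with replicates 1 and 2 at -2.77 and -2.92 and replicates 3 and 4 at -4.10 and -4.22.

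**Figure D3:**
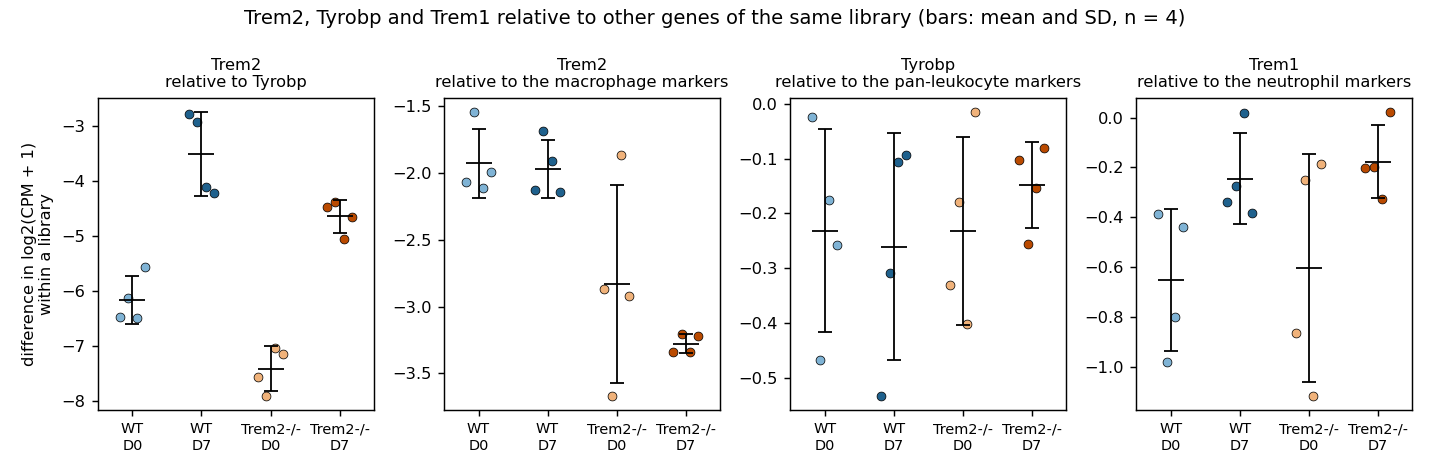
Difference in log2(CPM + 1) between a gene and its comparator within each of 16 libraries, for Trem2 against Tyrobp, Trem2 against 8 macrophage markers, Tyrobp against 6 pan-leukocyte markers and Trem1 against 5 neutrophil markers, with bars for the mean and SD of 4 libraries. Trem2 rises against Tyrobp after injury in both genotypes, whereas Tyrobp stays between -0.53 and -0.02 against the pan-leukocyte markers in every library.

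Levels of different genes were compared per kilobase of the longest principal transcript. At WT D0 the order was Tyrobp at 708 ± 211, Trem1 at 207 ± 53.5, Syk at 80.3 ± 19.997, Trem3 at 70.9 ± 25.02, Treml2 at 23.2 ± 9.37, Hcst at 21.3 ± 5.57, Treml4 at 6.28 ± 1.87 and Trem2 at 4.20 ± 1.29 CPM per kilobase (SD, n = 4). Syk and Trem3, and Treml2 and Hcst, were neighbours closer than their spread. The libraries of Treml4 and Trem2 overlapped, with the lowest for Treml4 at 4.80 and the highest for Trem2 at 5.16 CPM per kilobase. At WT D7 Trem2, at 15.4 ± 4.67 CPM per kilobase, stood above Hcst (9.94 ± 4.41), Treml2 (9.65 ± 1.46) and Treml4 (3.28 ± 1.12), though Trem2 and Hcst overlapped within their spread. The place of Trem2 in this order rests on the transcript length chosen, as its share of the receptors shows.

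Of the summed per-length level of the 5 receptors, Trem2 made up 0.938% to 2.14% at WT D0 and 5.55% to 15.2% at WT D7. The Trem2 share in Trem2-/- mice was 0.220% to 0.571% at D0 and 2.54% to 4.62% at D7. Trem1 supplied most of the sum in every group, with means of 66.9% (D0) and 65.3% (D7) in WT mice and of 68.4% (D0) and 74.7% (D7) in Trem2-/- mice. The Trem2 share depends on the length used: over the union of all exons, which for Trem2 is 4946 bases against 1088, the mean share at WT D7 was 2.61% rather than 10.2%, and at WT D0 0.323% rather than 1.38%. The summed receptor level per unit of Tyrobp was 0.443 ± 0.027 at WT D0, 0.464 ± 0.073 at WT D7, 0.473 ± 0.053 at Trem2-/- D0 and 0.459 ± 0.037 at Trem2-/- D7 (SD, n = 4), differences smaller than the spread.

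**Figure D4:**
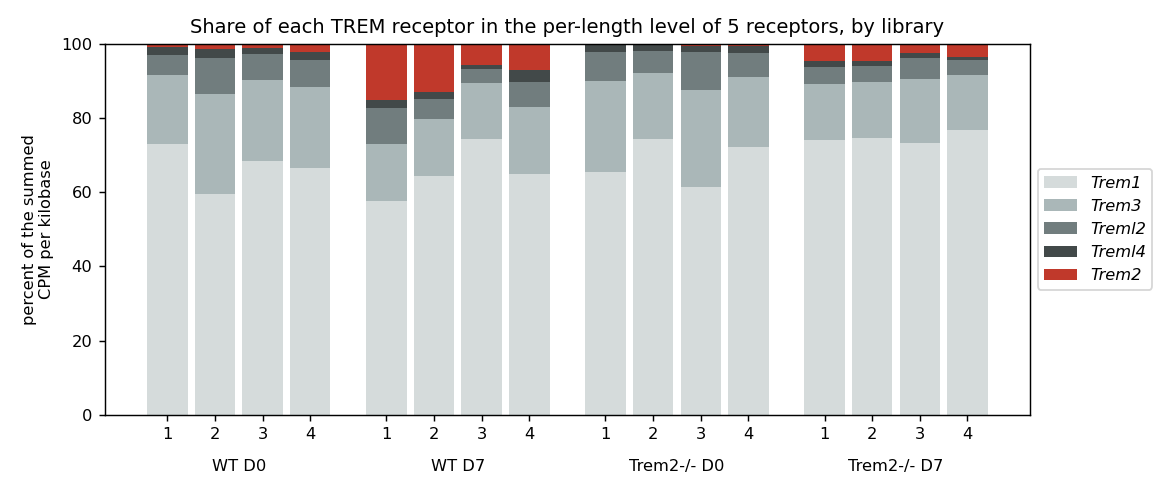
Stacked bars of the percent of the summed CPM per kilobase of Trem1, Trem3, Treml2, Treml4 and Trem2, 1 bar per library, grouped by genotype and time with replicate numbers. The Trem2 segment at the top is largest in the 4 WT D7 libraries (5.55% to 15.2%), and Trem1 is the largest segment in all 16.

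Genes with the most similar profile across the 16 libraries were sought for Trem2, Tyrobp and Trem1, as the root mean square of the difference in centred log2(CPM + 1), among 10551 genes whose mean was 5 CPM or more. For Trem2 the closest were Dpep2 (0.58), a dipeptidase of leukotriene metabolism, Hpgds (0.58), the haematopoietic prostaglandin D synthase, and Adgre1 (0.61), which encodes the macrophage antigen F4/80. Abcc3 (0.68), a transporter, and Slc7a8 (0.68), an amino acid transporter, followed. Trem2 itself varied with an SD of 1.01, and 3717 genes lay within that distance, so the likeness was loose. Dpep2 rose from 2.98 ± 1.10 to 12.5 ± 2.97 CPM in WT and from 2.88 ± 1.14 to 7.71 ± 1.79 CPM in Trem2-/- mice (SD, n = 4 each). Adgre1 rose from 32.3 ± 8.94 to 87.2 ± 13.5 CPM in WT and from 33.6 ± 4.44 to 60.03 ± 7.10 CPM in Trem2-/- mice.

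For Tyrobp the closest genes were Msrb1 (0.11) and Msra (0.13), both methionine sulfoxide reductases, Mxd1 (0.11), a partner of MAX, Samsn1 (0.13), a leukocyte adaptor, and Lst1 (0.14), with Hcst sixth (0.14). For Trem1 they were Lmnb1 (0.14), the nuclear lamin B1, Ppp1r3b (0.18), a glycogen-targeting phosphatase subunit, Tyrobp itself (0.18), Fcgr4 (0.19), an Fc receptor, and Ccl3 (0.20), a chemokine. Tyrobp and Trem2 were 1.55 apart, and Trem2 ranked 9998 among the genes by likeness to Tyrobp. These distances share their libraries and describe them only.

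The other genes of the pathway were taken from lists of known DAP12 and DAP10 partners, ligands, kinases and inhibitors. The table held 8 of 16 listed receptors that pair with DAP12 or DAP10, and of these, at D7 in WT 6 were called lower and 1 higher than at D0, where 18.2% of all genes were called lower and 19.3% higher. Siglech, a plasmacytoid dendritic cell receptor, fell by 1.28 (SE 0.26, adjusted p = 0.00376 by limma) and Plxna1, the plexin that associates with TREM2 and DAP12 in osteoclasts, rose by 1.26 (SE 0.26, adjusted p = 0.00422 by limma). In Trem2-/- mice 7 were called lower and 1 higher (27.9% and 26.5% of all genes), with Plxna1 at 1.60 (SE 0.26) and Clec5a, a DAP12-coupled lectin receptor of myeloid cells, at -1.74 (SE 0.31). Between genotypes at D7, 2 of 8 were called lower (4.53% of all genes), Siglech at -1.27 (SE 0.26, adjusted p = 0.441 by limma) and Cd300lb at -0.82 (SE 0.23, adjusted p = 0.451).

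Ligands divided. Apoe, the lipoprotein ligand of TREM2, rose with injury by 0.96 in WT (SE 0.24, adjusted p = 0.00969 by limma) and by 0.70 in Trem2-/- mice (SE 0.24, adjusted p = 0.0211 by limma). Pglyrp1, a ligand of TREM1 made by neutrophils, fell by 1.39 (SE 0.40, adjusted p = 0.0191 by limma) and by 2.45 (SE 0.40, adjusted p = 0.000158 by limma). Clu, from the same list, was also called lower in WT, at -1.30 (SE 0.57, adjusted p = 0.0987 by limma). Hspd1 was called lower in both genotypes. It stood at -0.53 in WT (SE 0.25, adjusted p = 0.109 by limma) and at -0.85 in Trem2-/- mice (SE 0.25, adjusted p = 0.00901 by limma). The list held ligands of TREM2, TREM1 and the receptor NKG2D, and 9 of the 14 listed were tested. H60b, also from this list, was called higher in both genotypes but was low, with means of 0.692 CPM at WT D0 and 1.79 CPM at WT D7. At an adjusted p below 0.05 by limma, 2 ligands were higher and 1 lower in WT (15.9% and 12.6% of all genes). By the unadjusted call, 2 of the 9 were higher and 4 lower with injury in WT and 3 in each direction in Trem2-/- mice. The shares over all genes were 19.3% higher and 18.2% lower in WT, and 26.5% higher and 27.9% lower in Trem2-/- mice. The ligand counts with injury in the knockout were thus near the background. None of the 9 was called between genotypes at D7, where 5.72% of all genes were, so this too was near the background. Of 7 proteases and gamma-secretase subunits that cut TREM2 from the surface, Ncstn alone was called with injury in WT, at 0.35 (SE 0.09, adjusted p = 0.00865 by limma). Over all genes 37.4% were called there. None of the 7 was called between genotypes at D7, where 5.72% of all genes were.

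Kinases and adaptors downstream of the ITAM fell with Syk in part. Of 29 tested, 17 were called lower and 2 higher with injury in WT, and 19 lower and 5 higher in Trem2-/- mice, against 18.2% of all genes lower and 19.3% higher in WT and 27.9% and 26.5% in Trem2-/- mice. Src and Nfatc1, the kinase and transcription factor known from osteoclasts, rose in WT by 1.19 (SE 0.27, adjusted p = 0.00657 by limma) and 0.76 (SE 0.22, adjusted p = 0.0201 by limma). Btk and Card9 fell in WT by 1.01 (SE 0.22, adjusted p = 0.00488 by limma) and 0.89 (SE 0.26, adjusted p = 0.0219 by limma). Plcg2, the phospholipase C gamma of myeloid cells, fell in WT by 0.82 (SE 0.22, adjusted p = 0.0138 by limma) and was lower in the knockout at D7 by 0.64 (SE 0.22, adjusted p = 0.558 by limma). At D7, 14 of 29 were called lower in the knockout and none higher, with a median of -0.37 against 0.01 over all genes, of which 4.53% were called lower, among them Fgr at -0.84 (SE 0.26) and Card9 at -0.82 (SE 0.26), none with an adjusted p below 0.05 by limma. Osteoclast markers (5 of 6 listed) summed to 243 to 399 CPM at WT D7 and 363 to 532 CPM at Trem2-/- D7, against 83.3 to 259 CPM and 58.9 to 106 CPM at D0. With injury in WT, 2 of the 5 (Ctsk and Ocstamp) were called higher (19.3% of all genes), and 2 had differences below 0. In Trem2-/- mice 4 were called higher (26.5% of all genes) and Calcr was called lower (27.9% of all genes). The part of these markers in the rise of Src and Nfatc1 was not tested.

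Inhibitors of the pathway were mixed after injury in WT. Of 9 phosphatases, ubiquitin ligases and inhibitory adaptors, 3 were called lower and 1 higher there, with a median of 0.0070, where 18.2% of all genes were called lower and 19.3% higher. At D7, 4 of the 9 were called lower in the knockout, against 4.53% of all genes. Ptpn6, which encodes the phosphatase SHP-1, fell in WT by 1.11 (SE 0.32, adjusted p = 0.0203 by limma), and Inpp5d, which encodes SHIP1, was lower in the knockout at D7 by 0.74 (SE 0.20, adjusted p = 0.451 by limma). Among 7 other ITAM chains 6 were called lower with injury in WT (18.2% of all genes), and 3 were called lower in the knockout at D7 (4.53% of all genes): the B-cell chains Cd79b at -1.11 (SE 0.27) and Cd79a at -1.09 (SE 0.31), and Fcer1g, the Fc receptor gamma chain, at -0.61 (SE 0.26), with adjusted p of 0.441 to 0.627 by limma. B-cell markers (3 of 3 listed, Cd79a and Cd79b among them) summed to 35.3 to 75.3 CPM at WT D7 and 22.3 to 31.7 CPM at Trem2-/- D7.

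**Figure D5:**
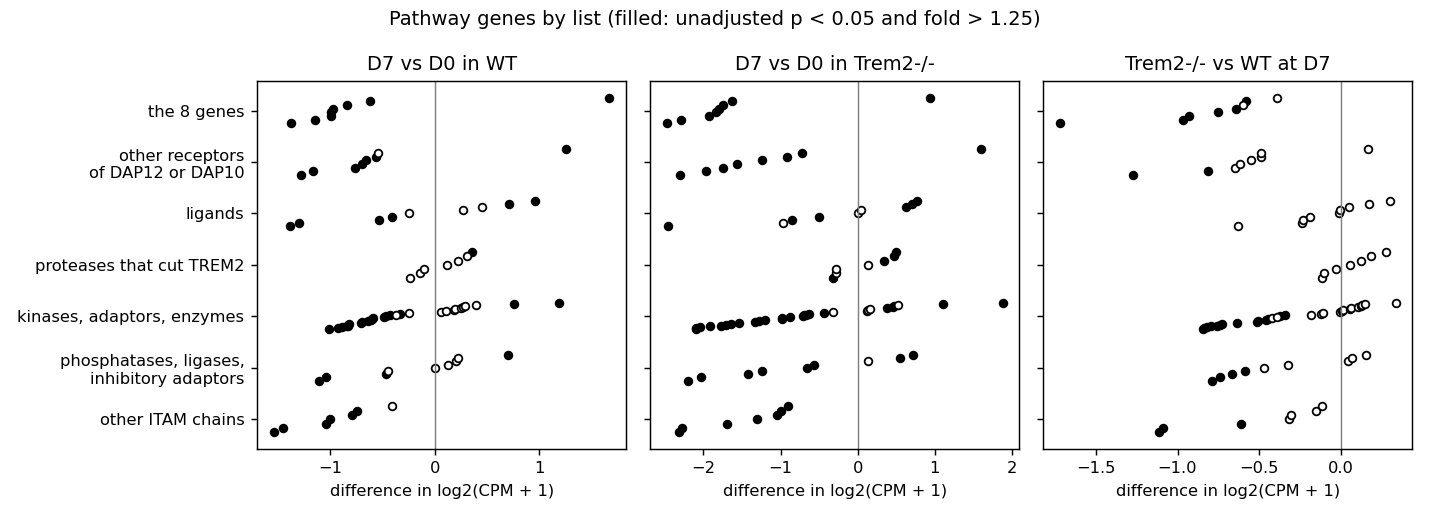
Difference in log2(CPM + 1) for the 8 genes and for each tested gene of 6 pathway lists, in 3 contrasts on separate horizontal scales, with filled points for genes called at an unadjusted p below 0.05 and a difference above 0.32. Between genotypes at D7, 6 of the 8 genes (Trem2 among them) and 14 of the 29 kinases, adaptors and enzymes are called, all lower. Over all genes 4.53% are called lower. No ligand or protease is called, where 5.72% of all genes are called in either direction.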

How the data were processed

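Bulk RNA-seq of knee joint cells was measured in 16 libraries, 4 in each of 4 groups of genotype (WT, Trem2-/-) and day (0 uninjured, 7 after injury), grouped by the sample labels. The authors aligned reads to mm10 with STAR, counted them with featureCounts and scaled them with edgeR to TMM-normalized CPM, per the submitters' processing notes and the study's methods; versions are not given in the sources used here. The deposited values are thus a normalized signal per gene (CPM divided by a library factor), and 100% of them came out as whole reads within 0.01 of a read. The depth was 11567073 to 32867818 reads per library, which limits the precision of genes with few reads, and the notes and the methods differ on the library kit. A gene listed in 2 identical rows was counted once, leaving 13733 genes.

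From these values, log2(CPM + 1) was fitted with limma 3.58.1 (R 4.3.3, eBayes with trend) over all 16 libraries, with genes of at least 1 CPM in at least 4 libraries (13173 genes), 4 groups as one factor, a call at an unadjusted p below 0.05 and a difference above 0.32, and Benjamini-Hochberg adjusted p over all genes tested. Single values were tested by exact two-sided permutation over 70 assignments. The fit was tested on simulated data. Alternatives were edgeR 4.0.16 and voom on the recovered reads, other pseudocounts, filters and scalings, a replicate block, and each library left out; leaving out both deep libraries and the length of the union of exons were added after seeing the data. The genes, the pathway lists and the marker lists were chosen with earlier results of these data known. Named genes were all 8 of the group, Treml1, 7 pathway genes (Apoe, Clec5a, Siglech, Fcer1g, Plcg2, Inpp5d, Ptpn6), up to 3 called genes in each direction per pathway list by size of change, and 5 genes per profile. Treml6 was not analysed here.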

Additional observations from a re-analysis of the deposited data

Results flagged for a closer look

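Treml2 at WT D7 was set apart by replicate 3, at 24.7 CPM against 18.4 to 19.4 CPM in the other 3 libraries. Its gap to the nearest library was 0.842 of the range of the group, above the 95% limit of Dixon's test for 4 values. Of 48 groups of 4 values tested in this way, 1 passed the limit, and chance passes about 1 in 20.

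The change with injury differed between the genotypes for 5 genes by the interaction term of limma, at an unadjusted p below 0.05 and with no adjusted p below 0.05. The interaction, Trem2-/- less WT on the log2 scale, was -0.85 for Tyrobp, -0.81 for Hcst, -1.33 for Treml2, -1.09 for Treml4 and -1.005 for Syk. The pan-leukocyte markers moved with these values, with 5 of 6 called in the same direction, where 5.02% of all genes were called lower. Tyrobp relative to those markers in each library differed by 0.11 between genotypes at D7 (exact permutation p = 0.371).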

How the results depend on the processing

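Of 1112 alternative values of single-gene log2 fold changes, 1057 kept their direction and their side of the threshold. In a contrast of 2 groups, leaving out a library of another group changes only the p and not the fold change. Such fits are in this total, which also pools the injury and the genotype contrasts. Trem1 between genotypes at D7 turned to 0.12 without both deep libraries and ran from -0.71 to 0.0015 with single libraries left out. With an adjusted p below 0.05 as the call, 0 genes were called between genotypes at D7, 0 at D0 and 0 in the interaction. The count at D7 was 1 of the 8 with voom, a pseudocount of 5, eBayes without trend or the groups compared alone. It was also 1 in some fits with a library left out. By the unadjusted call and without both deep libraries, 3 of the 8 were called at D7 and 3 in the interaction. With single libraries left out these counts were 4 to 8 and 3 to 7. Fitted to the groups compared alone, and also without WT D0 replicate 3, 4 rather than 8 genes had an adjusted p below 0.05 for injury in WT. Trem2 relative to Tyrobp at D7 was -0.63 with a pseudocount of 5 (exact permutation p = 0.229), -1.39 without both deep libraries and -1.37 to -0.89 with single libraries left out. Trem2 relative to the macrophage markers was -1.27 at D7 without both deep libraries, 0.030 for injury in WT with a pseudocount of 0.1, and -0.61 for injury in Trem2-/- mice with a pseudocount of 5. With single libraries left out it ran from -1.23 to -0.62 at D0, from -0.13 to 0.086 for injury in WT and from -0.73 to -0.12 for injury in Trem2-/- mice. Tyrobp relative to the pan-leukocyte markers was 0.026 for injury in WT after quantile normalization, and ran from -0.079 to 0.069 at D0 and from -0.11 to 0.061 for injury in WT with single libraries left out. Trem1 relative to the neutrophil markers was 0.35 with a pseudocount of 5 and 0.32 without both deep libraries for injury in WT (0.30 to 0.50 with single libraries left out). After quantile normalization it was -0.067 at D0 and 0.77 for injury in Trem2-/- mice, and at D0 it ran from -0.092 to 0.22 with single libraries left out. Left out singly, Trem2-/- D0 replicate 3 (-1.23 at D0) and Trem2-/- D0 replicate 2 (-0.73 for injury) each brought Trem2 relative to the macrophage markers to an exact permutation p of 0.0286. The causes were not tested.

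Same-numbered libraries correlated from -0.51 to 0.41 in their deviations from the group means, and from 0.046 to 0.41 between WT D0 and WT D7. Libraries with different numbers were not compared, so these values cannot tell whether replicate numbers pair the samples. With a replicate block, 7 of the 8 genes were called between genotypes at D7 and 6 in the interaction, with Trem3 added at -0.60 and -0.91. Depth limits Treml1 most, with as few as 0 reads in a library.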
